A study of Homo sapiens with 30 samples.

Results

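CTCF regions are stretches of DNA at which chromatin immunoprecipitation with a CTCF antibody, followed by sequencing, gave a called peak. The regions described here came from the 2 CTCF peak lists of an auxin experiment in HEK293T, an established cell line from human embryonic kidney. Peaks of the same list with at least 1 base in common were merged to 1 region. A region was kept if it shared at least 1 bp with a region of the other list, lost if it was called without IAA only, and new if it was called with IAA only. The lists held 42925 regions without IAA and 63 with IAA, together 42988 of the 70565 regions in the 8 lists of the study, which also used antibodies to MBD3, TET1 and TET2.

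The experiment had 30 samples in 10 groups of 3, of which 6 samples stood behind the CTCF lists. CTCF-edited HEK293T cells were transfected with the plasmids pcDNA3.1-ScFv-miniIAA7-mEGFP and pcDNA3.1-AtAFB2-mCherry in both conditions, and then given 0.5 mM IAA for 72 h or medium without IAA. The samples without IAA carry the label DMSO_72h, although the protocol names only medium without IAA. The edited cells and the transfection were therefore common to both groups, and no unedited cells entered the comparison. Transient transfection need not reach every cell, and the labels do not say whether the edited line is 1 clone. Each list was called on 3 pooled samples, so it carries no replicate spread, no difference below has a p-value, and the intervals cover counting error over regions only. Read depth behind the lists is unknown.

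CTCF is a zinc-finger protein that binds a long DNA motif at many places in the genome. It stops cohesin as it extrudes loops, and so sets the edges of many chromatin loops and domains. IAA is the plant hormone auxin, which brings a protein carrying an IAA degron to an F-box protein, here AtAFB2, so that it is ubiquitylated and degraded. Fold enrichment and −log10 q below are the authors' peak values for each region, and regions are ranked by them only within a list, so values of a region in both lists stand side by side and are not a change.

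Of the 42925 CTCF regions without IAA, 42871 (99.9%) were lost and 54 (0.126%) were kept, with a Wilson 95% interval of 0.0964% to 0.164%. Of the 63 regions with IAA, 54 (85.7%) were kept and 9 were new. When both regions had to share 50% of their length, 0.0443% were kept and 44 were new, and with −log10 q of at least 10 in both lists 0.0349% were kept and 4 were new. Small shares were also kept in the lists of the other antibodies, matched in the same way. They were 0.182% of 6608 MBD3 regions, 0.222% of 16246 TET1 regions and 0.452% of 1326 TET2 regions. The kept CTCF regions fell into 2 sets. At 8 of them peaks of all 4 antibodies were called in the same condition, which held for 135 (0.315%) of all CTCF regions without IAA. The other 46 were called with CTCF and not with all 4 antibodies. Without IAA these 46 had a median fold enrichment of 36.2, from 8.93 to 94.7, and the 8 had a median of 1.61, from 1.10 to 3.10. The ranges did not overlap, and no kept region lay between 3.10 and 8.93. The lost regions had a median fold of 13.6.

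**Figure D1:**
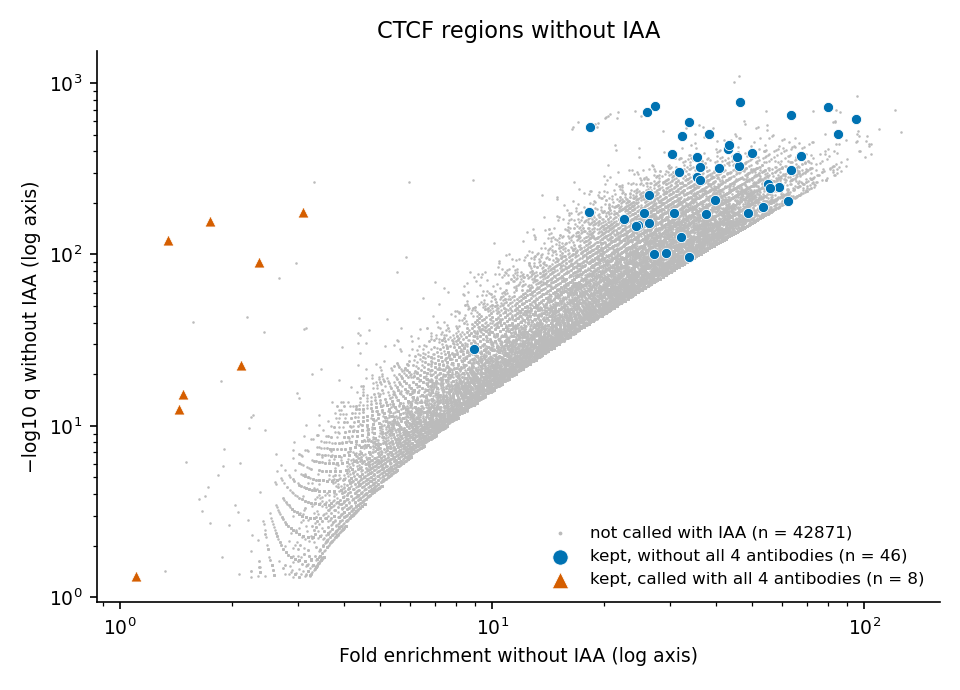
Fold enrichment against −log10 q, both on log axes, for each CTCF region without IAA, with lost regions in grey, the 46 kept regions not called with all 4 antibodies as blue circles and the 8 called with all 4 as orange triangles. The 8 sit at folds of at most 3.10, left of nearly all lost regions, and the 46 lie at 8.93 or above.

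The kept regions were narrow with IAA and wide without it. Without IAA their median width was 395 bp (95% interval of the median 377 to 419), with quartiles of 357 and 439 bp, against 276 bp (275 to 277) for the lost regions, with quartiles of 213 and 344 bp. With IAA the same 54 places had a median width of 186 bp (178 to 193). The new regions had a median of 216 bp, from 166 to 388 bp. The region was narrower with IAA at 51 of the 54 places, in 46 of the 46 and in 5 of the 8 called with all 4 antibodies. In the 46, the median went from 400.5 to 182 bp, and in the 8 from 356.5 to 312 bp. The median ratio of widths was 45.2% in the 46 and 84.1% in the 8. At 47 of the 54 places the region with IAA lay wholly inside the region without IAA. Many widths with IAA lay close to the lowest of that list, 166 bp, which 4 regions had. The lowest without IAA was 154 bp. The part of this lower limit and of read depth in the narrower widths was not tested.

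With IAA 38 of the 54 kept regions were at most 200 bp wide, against 1 of the same 54 without IAA. Among all 42925 regions without IAA, 8568 were that narrow. Width moved with strength in the list without IAA. Lost regions with a fold between the quartiles of the kept regions, 24.9 to 46.2, numbered 8737 and had a median width of 354 bp (353 to 355). Lost regions with −log10 q between the kept quartiles numbered 4248 and had a median of 382 bp (380 to 384), which lies inside the interval of the kept median. The part of strength in the widths was not tested.

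**Figure D2:**
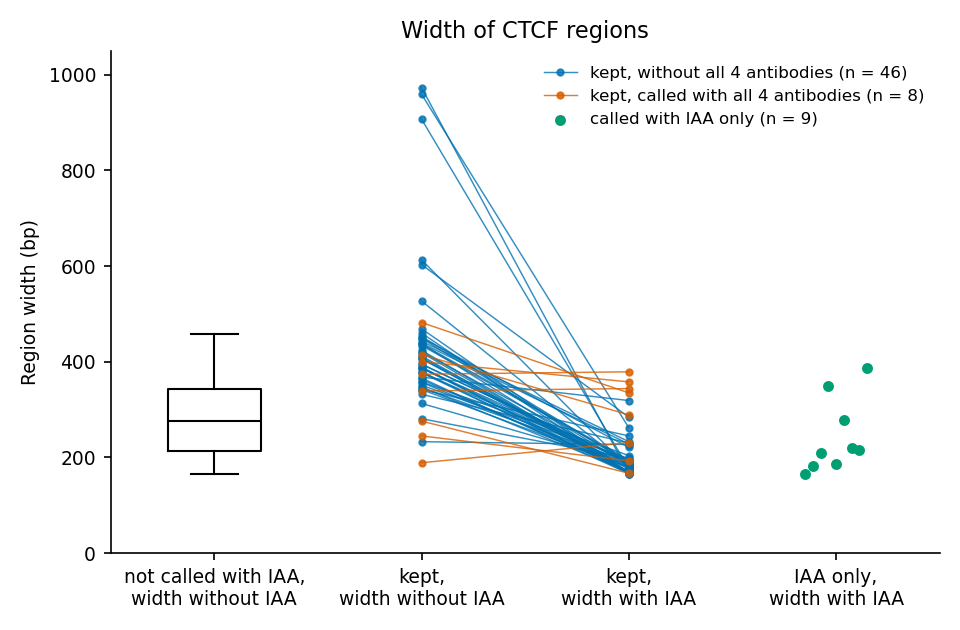
Region width in bp: the box shows the median and quartiles of the lost regions with whiskers at the 5th and 95th percentiles, lines join the width without and with IAA of each kept region, and green points are the 9 new regions. Lines of the 46 regions (blue) all fall, and those of the 8 called with all 4 antibodies (orange) stay nearer level.

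The widest kept regions lost the most width. This was largely fixed in advance, since kept widths with IAA were much alike, with quartiles of 170 and 225.5 bp and a lowest value of 166 bp. The Spearman correlation between the widths in the 2 lists was −0.138 over the 54 kept regions. The region chr6:20126925-20127897 (hg19, positions counted from 1) was 973 bp wide without IAA and 167 bp with IAA. The region chr19:36207670-36208628 went from 959 to 262 bp, and chr11:65655724-65656630 from 907 to 177 bp. At the other end, chr1:121484466-121484654 was 189 bp wide without IAA and 231 bp with IAA, and chr10:42398550-42398794 went from 245 to 193 bp. Both are among the 8 called with all 4 antibodies. The narrowest of the 46, chr12:298397-298629, hardly changed in width, with 233 and 227 bp. More than 1 joined row made up 6 of the 54 kept regions (11.1%) and 894 of the lost ones (2.09%).

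The summit, the base of highest signal, stayed close to its place, within the limit that the overlap rule sets. Kept regions share bases by definition, so their summits cannot lie far apart. The median distance between the summits of a kept region in the 2 lists was 22.5 bp (15 to 28), with quartiles of 11 and 37.8 bp. It was at most 25 bp at 30 of 54 places (55.6%), at most 50 bp at 45 (83.3%, 71.3% to 91.0%) and at most 100 bp at 50. The summit moved to a higher position at 26 places and to a lower one at 25. It fell on the same base at 3 places, with the regions chr16:60887-61107, chr6:35310094-35310264 and chr9:130879952-130880121 with IAA. The median distance was 24 bp (16 to 33) in the 46 and 8 bp (3 to 120) in the 8 called with all 4 antibodies. It was 12 bp over the 19 regions kept under the 50% rule and 11.5 bp over the 12 kept with −log10 q of at least 10. Only 5 of the 46 reached that minimum with IAA, so the 12 were mostly regions called with all 4 antibodies.

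The 4 distances over 100 bp were 179 bp at chr19:36207670-36208628, 147 bp at chr8:33448478-33448758, 120 bp at chr1:121484466-121484654 and 103 bp at chr6:20126925-20127897. The first and the last are among the 3 widest kept regions. The chromosome 8 region shared 116 bp with its partner, the fewest of all, and the next fewest was 166 bp. No kept region therefore rests on an overlap of a few bases. The new regions lay apart, with their nearest CTCF region without IAA 2386 to 506981 bp away and a median of 155478 bp.

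**Figure D3:**
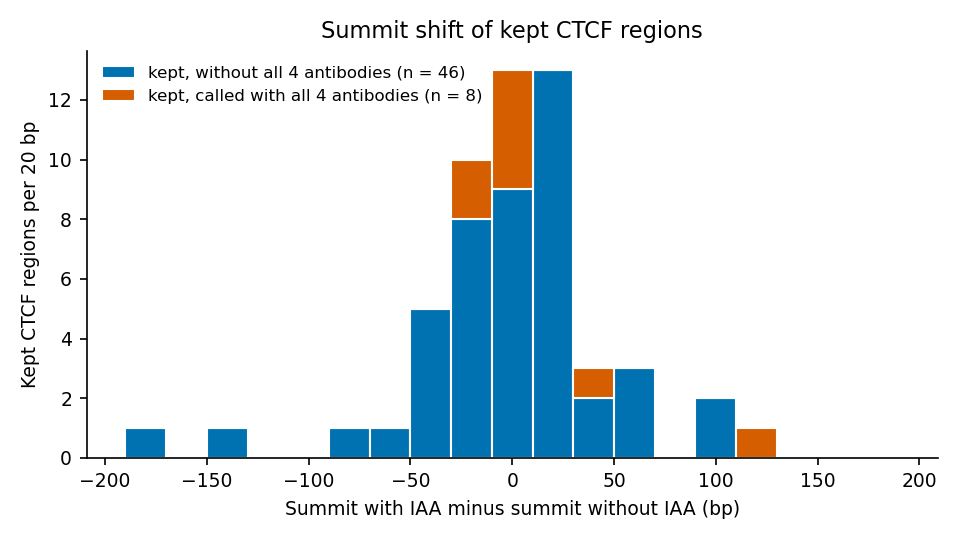
Number of kept CTCF regions by signed summit shift in bp (position with IAA minus position without), in bins of 20 bp, with the 46 regions in blue and the 8 called with all 4 antibodies stacked in orange. The shifts centre near 0, with 26 to higher and 25 to lower positions and 4 beyond 100 bp.

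More of the kept regions ranked high by −log10 q than by fold or width. In 10 equal strata of −log10 q, the top stratum held 40 of the 54 kept regions, a share kept of 0.932% (0.685% to 1.27%). The next strata down had 5 (0.117%) and 4 (0.0932%). The top 1% of regions held 22 of the 54. By fold, the top stratum held 26 kept regions (0.606%), the next 10 and the one after 7. The lowest fold stratum held 8 (0.186%), which are the 8 called with all 4 antibodies. By width, the strata from the top held 25, 14 and 9 kept regions, and the other 7 strata together held 6.

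Within 1 fold range the difference in −log10 q remained. Among regions with a fold of 24.9 to 46.2, the 26 kept ones had a median −log10 q of 310, with quartiles of 175 and 406. The 8737 lost ones had a median of 124, with quartiles of 93.6 and 165. A −log10 q above 300 was found in 14 of the 26 (53.8%, 35.5% to 71.2%) and in 147 of the 8737 (1.68%). The same 26 regions were called with TET1 without IAA in 25 cases (96.2%) and with MBD3 in 11 (42.3%), against 86.7% and 22.7% of the lost ones in that range. Lost regions in the kept range of −log10 q had TET1 in 99.1% and MBD3 in 44.1%.

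**Figure D4:**
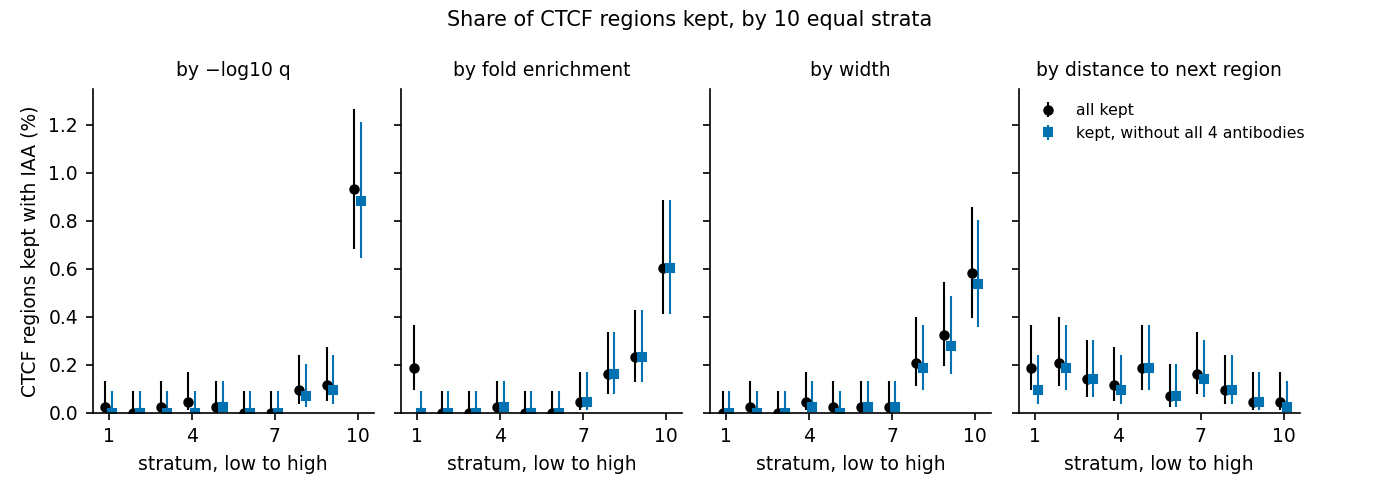
Share of CTCF regions kept with IAA, in percent with Wilson 95% intervals, over 10 equal strata of −log10 q, fold, width and distance to the next CTCF region, for all kept regions (black) and without those called with all 4 antibodies (blue). The top −log10 q stratum reaches 0.932%, and the lowest fold stratum holds kept regions only in the black series.

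Most of the strongest regions were lost. The 10 regions of highest −log10 q held 3 kept ones, and of the 54 regions above 500, 10 were kept and 44 lost. The strongest of all, chr7:102212835-102213478, was called with all 4 antibodies and was lost. It had −log10 q of 1102 and a fold of 46.2. The kept region chr7:150869575-150870023 had the same fold of 46.2 and −log10 q of 778. Next in the list came the kept regions chr4:8626607-8626993, at 735 and a fold of 27.4, and chr16:90182581-90182958, at 721 and a fold of 80.1. The regions of highest fold were lost, namely chr12:58299121-58299535 at 125.9, chr1:147553417-147553861 at 120.8 and chr6:73121727-73122273 at 109.5. Their −log10 q values were 518, 695 and 540. All 3 were called with MBD3 and TET1 without IAA, and the first also with TET2.

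In the list with IAA the 46 regions had a lower median −log10 q and a higher median fold than the 8 called with all 4 antibodies. Their median −log10 q with IAA was 4.37, from 1.31 to 17.0, and their median fold was 6.25, from 2.67 to 10.97. A value of at least 10 was reached by 5 of the 46 and by 8 of the 8 called with all 4 antibodies. Those 5 are chr5:111496371-111496574 at 17.0, chr2:112505276-112505505 at 14.1, chr1:26690412-26690606 at 12.8, chr7:150869712-150869894 at 12.7 and chr9:998629-998912 at 11.2. They also had the highest folds of the list with IAA, 9.89, 10.97, 10.4, 8.88 and 8.52 in that order. Without IAA the same 5 places had folds of 33.7, 30.5, 63.5, 46.2 and 63.4, and −log10 q of 589, 384, 311, 778 and 647. The kept region of highest fold without IAA, chr9:130879853-130880264 at 94.7, stood at 6.67 in its list with IAA. Chr20:30200585-30201197 and chr16:90182581-90182958, at 85.0 and 80.1 without IAA, stood at 7.10 and 7.62.

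The 8 kept regions called with all 4 antibodies included the largest −log10 q of the list with IAA and had small folds in both lists. Their median −log10 q with IAA was 19.2, from 11.7 to 229, at a median fold of 1.83. Chr19:27731968-27732306 had −log10 q of 158 and a fold of 1.75 without IAA, and 229 and 2.33 with IAA. Chr1:121484961-121485375 had 122 and 1.34 without IAA, and 91.4 and 1.36 with IAA. Of the 135 regions without IAA that were called with all 4 antibodies, 8 were kept. The 127 lost ones had a median fold of 7.67, from 1.32 to 125.9. Among the 135, those with a fold of at most 3.10 numbered 20, of which 8 were kept. That limit is the highest fold of the 8 themselves, so all 8 fall under it by construction. With IAA, MBD3 was called at 5 of the 8, TET1 at 6 and TET2 at none. Over all 42925 places these calls with IAA numbered 6 (0.0140%), 45 (0.105%) and 35 (0.0815%).

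At the 46 other kept regions, TET1 was called at 44 without IAA and at 2 with IAA. MBD3, a subunit of the NuRD chromatin remodelling complex, was called at 25 without IAA and at none with IAA. TET2, like TET1 an enzyme that oxidises methylcytosine, was called at none without IAA and at 1 with IAA. The absence of TET2 without IAA was partly fixed by definition. A region with MBD3 and TET1 would have left this set if TET2 had been called there too. Over all CTCF regions without IAA the calls in that condition stood at 14746 (34.4%) for TET1, 3722 (8.67%) for MBD3 and 474 (1.10%) for TET2. Of the last, 135 were at regions called with all 4 antibodies. The drop in TET1 and MBD3 calls was not particular to these places. Their whole lists went from 16246 to 325 and from 6608 to 50 regions with IAA, and the TET2 list from 1326 to 3022.

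The new regions had folds near those of the 8 and a median −log10 q near that of the 46. Their median fold was 1.56, from 1.19 to 3.46, with a median −log10 q of 4.19, from 1.45 to 118, and 3 of the 9 reached 10. The highest fold, 3.46, was at chr7:61975553-61975940, and the highest −log10 q, 118, at chr10:42596965-42597147 with a fold of 1.61. A peak of at least 1 other antibody was called with IAA at all 9, with MBD3 at 8, TET1 at 7 and TET2 at 6, and all 3 others at 5. Over all 63 regions with IAA, these among them, MBD3 was called at 13 (20.6%), TET1 at 15 (23.8%) and TET2 at 7 (11.1%). All 3 others were called with IAA at none of the 8 or of the 46. Without IAA MBD3 was called at 2 of the 9 places, and TET1 and TET2 at 1 each. They lay on 5 chromosomes, with 3 on chromosome 7, 2 each on 10 and 16, and 1 each on 2 and 19.

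Most of the new regions and of the 8 kept regions called with all 4 antibodies lay in or beside long stretches without CTCF regions of cells without IAA. The longest such stretch of each chromosome was found from the list without IAA, and was 21.1 Mb on chromosome 1, 11.4 Mb on chromosome 16 and 3.10 Mb on chromosome 2. Within 1 Mb of that stretch lay 8 of 9 new regions, 6 of them inside it, and 7 of the 8 kept regions, 4 of which form its edge. These counts are partly fixed by the rule, since the stretches are gaps in the list without IAA and new regions touch no region of that list. Over all regions without IAA on chromosomes 1 to 22 and X, 427 of 42300 (1.01%) lay within 1 Mb. Of the lost regions called with all 4 antibodies, 5 of 123 (4.07%) did. The exception of the 8, chr9:67320493-67320892, lay 1.74 Mb away. Of the 46 others 1 lay within 1 Mb, at chr20:30200585-30201197. The stretches were not matched to an annotation of centromeres or repeats. The new region outside was chr19:55625980-55626166, 27.9 Mb from the stretch of its chromosome.

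A larger share of the kept than of the lost regions lay near chromosome ends, but the kept regions of −log10 q of at least 10 were too few to tell. Chromosome ends were taken as position 1 and the highest position in any list. Within 5 Mb of an end lay 12 of the 54 kept regions (22.2%, 13.2% to 34.9%), or 12 of the 46 (26.1%, 15.6% to 40.3%) and none of the 8, and 3877 of 42246 lost ones (9.18%, 8.91% to 9.46%). Of the 12 kept with −log10 q of at least 10 in both lists, 8.33% lay within 5 Mb, below the share of lost regions. Those 12 were mostly regions called with all 4 antibodies, so they differ from the 54 in the mix of the 2 sets. Within 1 Mb the numbers were 7 of 54 (13.0%, 6.42% to 24.4%) and 2.13%. Lost regions in the kept fold range lay within 5 Mb in 8.53% and within 1 Mb in 1.62% of cases, and those in the kept range of −log10 q in 12.1% and 2.43%. The 7 were 3 of the 21 regions at the low end of chromosome 12, 1 of 34 at the low end and 1 of 33 at the high end of chromosome 16, 1 of 14 at the low end of chromosome 9 and 1 of 8 at the high end of chromosome 1. The 3 on chromosome 12 began at 94082, 298397 and 656120, with folds of 32.3, 8.93 and 36.2 without IAA. The outermost, chr1:249238537-249238970, lay 1.60 kb from the last listed position and had a fold of 26.4.

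Kept regions lay on 20 of the 23 chromosomes. Chromosome 1 had 6 of its 4001 regions kept, chromosome 10 had 5 of 1978 (0.253%) and chromosome 16 had 4 of 1437 (0.278%, 0.108% to 0.714%). Chromosomes 3, 14 and 18 had none, of 2384, 1413 and 821 regions, which allows shares of up to 0.126%, 0.212% and 0.365%. Each of those limits is at or above the share over all regions, so a lower share was not detectable there. None of the 625 regions on other sequences, 459 of them on alternative haplotypes of chromosome 6, was kept, which allows a share of up to 0.480%.

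The kept regions together lay nearer to the next CTCF region than the lost ones, but neither set alone could be told from the lost regions. The median distance from edge to edge to the next CTCF region was 7999 bp (5563 to 14174) for kept and 14848 bp (14605 to 15101) for lost regions. It was 1715 bp (306 to 533093) in the 8 and 10521 bp (5598 to 16360) in the 46, and both intervals hold the lost median. The most isolated kept region, chr19:27731968-27732306 with 533093 bp, was among the 8. Lost regions in the kept range of −log10 q had 10264 bp (9841 to 10892), within the interval of the 46. A neighbour within 5 kb was found for 18 of the 54 (33.3%, 22.2% to 46.6%) and for 24.8% of lost regions, inside that interval. The most isolated of the 46 were chr10:133836601-133836913, with 78175 bp to the next CTCF region, and chr6:38839702-38840110, with 61124 bp. Chr5:137688012-137688357 had the nearest neighbour of the 46, at 369 bp.

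Many kept regions were the strongest among their neighbours, as were many lost regions of like −log10 q. Of the 46, 34 (73.9%, 59.7% to 84.4%) had the highest −log10 q of all CTCF regions within 100 kb, and 26 (56.5%, 42.2% to 69.8%) the highest fold, with a median of 5 neighbours. Of lost regions with a neighbour there, 23.3% had the highest −log10 q and 23.4% the highest fold. In the kept range of −log10 q, 21 of 24 of the 46 (87.5%, 69.0% to 95.7%) and 67.1% of lost regions (65.6% to 68.5%) had the highest −log10 q. The highest fold was held by 62.5% (42.7% to 78.8%) and 60.5%, so the shares by fold could not be told apart. Another kept region within 100 kb was found for 2 of the 46, which are neighbours on chromosome X, and for 6 of the 8 called with all 4 antibodies.

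The chromosome X pair belonged to an evenly spaced array of CTCF regions. At chrX:114960393-115002462, 15 regions followed each other with 14 steps of 2965 to 3009 bp and a median of 2984 bp. This chromosome band is known for the macrosatellite DXZ4, a CTCF-bound tandem repeat, although the array was not matched to an annotation here. Their folds ran from 8.88 to 26.1 and their −log10 q from 272 to 679, and 14 of them were among the 42 highest of the whole list. TET1 was called without IAA at 15 and MBD3 at 14. With IAA only the 1st and the 12th were called. The 1st, chrX:114960393-114960816, had a fold of 26.1, the highest of the array, and stood at 2.67 in its list with IAA. The 12th, chrX:114993224-114993618, had 18.3, below the array's median of 19.2, and stood at 2.89. Their −log10 q with IAA were 2.05 and 1.31, and the latter was the lowest of all kept regions.

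**Figure D5:**
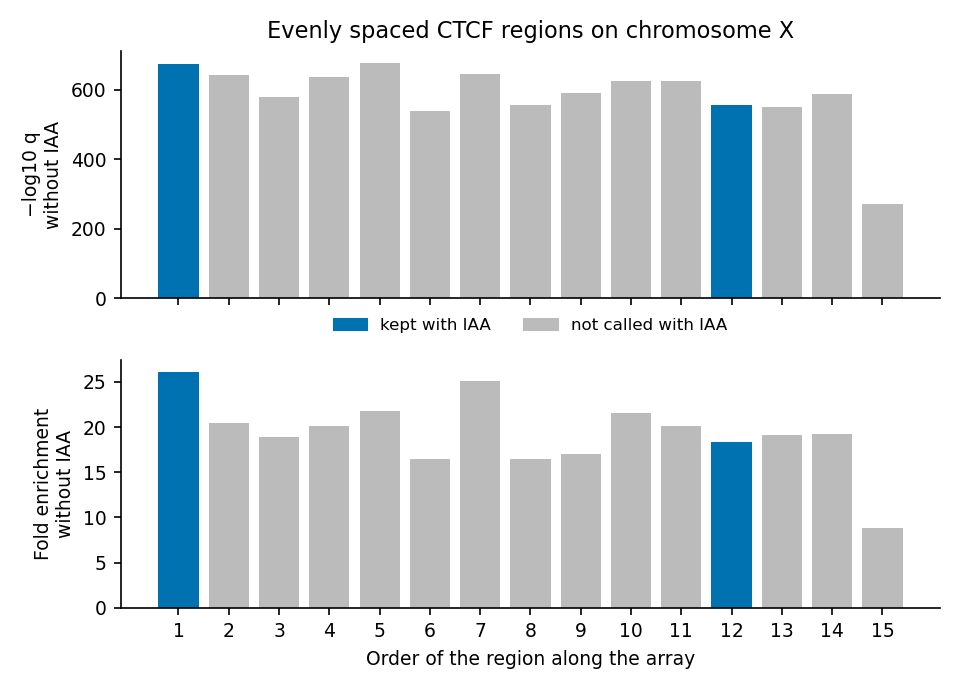
−log10 q (top) and fold enrichment (bottom) without IAA of the 15 evenly spaced CTCF regions on chromosome X, in order of position, with the 2 kept regions in blue and the lost ones in grey. The kept 1st and 12th regions do not stand apart in −log10 q, which is above 500 in 14 of the 15.

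Many of the strongest lost regions were in the array. Of the 54 CTCF regions with −log10 q above 500, 14 were in the array with 2 kept, and outside it 8 of 40 were kept. An even run was taken as at least 5 steps in a row, each within 10% of their median, a rule chosen after the values were seen. The other such run, chr7:38385204-38408092, had 6 regions with steps of 4331 to 4779 bp, folds of 6.12 to 28.2 and none kept.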

How the data were processed

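ChIP-seq peaks of CTCF were compared in cells with and without IAA, from 3 pooled samples in each list per the file names in the labels. Per the submitters' processing notes, the tools included FastQC 0.11.7, Bowtie2 2.3.4, SAMtools 1.9, MACS2 2.1.2 and bedtools 2.25.0, with genome build hg19. Which control was used for a list was not given in the sources. The deposited lists give each peak's fold enrichment, a ratio, and its −log10 q-value as the authors' caller wrote them. The highest q in the CTCF lists was 0.0494.

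From 43879 rows without and 66 with IAA, regions were built, matched and measured in Python 3.11.15 with numpy 2.4.6, pandas 2.3.3 and scipy 1.17.1. Shares have Wilson 95% intervals and medians binomial order-statistic intervals. The shares that a count of 0 kept regions allows were instead taken as 3 divided by the number of regions. The scripts were tested on simulated data. Regions named are those with the highest or lowest fold, −log10 q, width, shift or spacing in each class, and any others were chosen after their values were seen. The members and lists were chosen with earlier results of these data known. Alternatives were other overlap rules, −log10 q minimums, single rows and leaving out regions called with all 4 antibodies. Genes, motifs and the cohesin gene list were not analysed here, since no hg19 sequence or annotation was used.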

Additional observations from a re-analysis of the deposited data

How the results depend on the processing

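Of 63 settings over 9 results, 45 stayed within the interval of the main value. For the number of new regions, a range of 6 to 13.5 around the count of 9 took the place of a 95% interval. With 50% overlap of both regions, the share kept was 0.0443% in place of 0.126%, 44 regions were new in place of 9, and kept widths were 346 bp without and 230 bp with IAA in place of 395 and 186 bp. That rule asks narrow regions with IAA to cover wide ones without it, and left 19 kept regions, with a median summit distance of 12 bp in place of 22.5 bp. With a −log10 q of at least 5 or at least 10, the share kept was 0.0652% or 0.0349%, new regions numbered 5 or 4, and lost regions were 283 or 297 bp wide in place of 276 bp. The minimum of 10 left 12 kept regions, mostly those called with all 4 antibodies. They had a width of 257 bp with IAA and a summit distance of 11.5 bp. Of them 8.33% lay within 5 Mb of a chromosome end, in place of 22.2%. Without regions called with all 4 antibodies 4 new regions were left, as that filter removes them by construction. The median lost width was 279 bp over single rows, 354 bp in the kept range of fold and, in a comparison added after seeing the data, 382 bp in the kept range of −log10 q. No paired analysis was possible because the lists were pooled and carry no replicate, and for that reason leaving out a replicate was not run either. The alternatives for CTCF motifs were not run.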
